A study of Mus musculus with 12 samples.

Results

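The genes described here are 8 regulators of helper T cell fates other than Th1, followed in mouse T cells cultured under Th1 conditions: Gata3, Il4ra, Maf, Rora, Ahr, Foxp3, Ikzf2 and Bcl6. They were chosen as a group by their known roles, after earlier results of these data were known, and were found by gene symbol among the 18929 rows of the expression table. The rule sets no threshold on their values. All 8 were found and passed the filter on low values that left 12699 genes for testing. The cells were C57BL/6 T cells sorted after 5 days in Th1 culture. The control group is 3 libraries of wild-type genotype (WT), and the other group is 3 libraries of genotype Sdhc cKO. Sdhc encodes a membrane subunit of succinate dehydrogenase (complex II), which links the TCA cycle to the respiratory chain, and cKO is a conditional knockout; the driver of the recombinase is not given in the sources used here. The series title puts mitochondrial metabolism beside T cell differentiation, so the comparison asks whether regulators of other fates differ in Th1 cells when complex II is targeted. The other 6 samples of the series, an empty-vector (EV) group and knockouts of Slc25a1 and Slc25a11, were not analysed here.

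A naive CD4 T cell takes a helper fate from the cytokines it meets and from lineage transcription factors that hold each other down. T-bet, encoded by Tbx21, directs Th1 cells and interferon gamma. GATA3 directs Th2 cells downstream of the IL-4 receptor and STAT6, RORα and the ligand-activated receptor AHR act in Th17 cells, and c-MAF drives IL-10 and IL-21 in several helper types. FOXP3 and Helios (Ikzf2) mark regulatory T cells, and BCL6 directs follicular helper (Tfh) cells, where it is opposed by BLIMP-1 (Prdm1) and by IL-2 signalling through STAT5.

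The libraries held 18144933 to 21983821 counted reads each. The values, called normalised counts, are counts per gene after division by a size factor that each library has of its own. All 10 T cell markers were above 10 normalised counts in some library, with sums of 65028 to 74750, and the sum of the CD8 T cell markers Cd8a and Cd8b1 was 235 to 547. Sdhc itself had normalised counts of 1683, 1602 and 1892 in controls 1, 2 and 3 and 1452, 1562 and 1655 in cKO 1, 2 and 3, so the groups overlapped (log2 fold change -0.15, standard error, SE, 0.09). A count per gene does not resolve a deletion of part of the gene, so it does not check the labels. Libraries also differed in sex-linked RNA: Y-linked reads made up 0.048, 131 and 55.1 RPM (Y-linked reads scaled to library size) in controls 1, 2 and 3 and 0.207, 193 and 189 in cKO 1, 2 and 3. In controls 1, 2 and 3 the X-linked transcript Xist had 9780, 2490.5 and 6406 normalised counts. In cKO 1, 2 and 3 it had 7565, 0 and 2.15. Controls 2 and 3 thus held both Y-linked RNA and Xist, while cKO 2 and cKO 3 held Y-linked RNA with almost no Xist. Sex-linked RNA and genotype therefore cannot be fully told apart. The first principal component (49.1% of the variance) set both libraries numbered 1 apart, which are also those with almost no Y-linked reads. No label says that replicates are separate animals or cultures. The p-values therefore measure only the spread among these libraries, whose share of technical variation is not known. Since libraries of each group differed in sex-linked RNA, a group is not made of repeats of 1 sample.

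Of the 8 regulators, 0 passed the test of cKO against control (limma-trend, Benjamini-Hochberg adjusted p threshold 0.05; adjusted p = 0.978 to 0.988), against a background of 0% of all tested genes, or 0 of 12699. At an unadjusted p under 0.05 limma had 445 genes (3.5%) and edgeR 455 (3.58%), and by edgeR too 0 genes passed. No member was among the 0.0157% of genes called by DESeq2 or the 0.00787% called by limma with the replicate number as a block. Bcl6 was the single member among the 445, at an unadjusted limma p of 0.0345. The groups did not overlap at 2 members: Bcl6 was higher in every cKO library, and Foxp3 was lower in every cKO library. Over all tested genes 10.2% had groups without overlap, 4.51% with cKO higher and 5.64% with cKO lower. The other 6 members overlapped. Fold changes were positive at 3 members and negative at 5, with a median of -0.13 beside -0.01 over all tested genes, of which 5829 of 12699 (45.9%) were positive. The same 8 genes stayed uncalled under each of the 19 alternative settings tried.

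BCL6 is the repressor that directs Tfh cells, and its gene had the largest fold change of the 8 in the limma fit. Bcl6 (chromosome 16, 23965052 to 23988852, GRCm38, minus strand) had levels, in normalised counts, of 116, 108 and 81.4 in controls 1, 2 and 3 and 173, 136 and 124 in cKO 1, 2 and 3. Every cKO library lay above every control, with the highest control at 116 and the lowest cKO library at 124. The means were 102 ± 18.0 in control and 144 ± 25.6 in cKO (± SD over n = 3), which puts cKO at 142% of control. The log2 difference was 0.50 (SE 0.20, 95% interval 0.05 to 0.95), with a limma adjusted p of 0.978 and a 2-sided exact permutation p of 0.1, the smallest that 3 against 3 allows. Within libraries of the same number cKO was higher by 0.57, 0.33 and 0.60 on the log2 scale for numbers 1, 2 and 3. Over all tested genes 14.6% were higher in cKO in all 3 such pairs. The limma adjusted p was 0.271 with the replicate number as a block and 0.066 with the Y-linked read share as a covariate. That last value is the lowest that any member reached under any setting, in a fit that called 6.5% of all genes.

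Bcl6 has a pair of annotated start sites in RefSeq (GRCm38.p6), and the 250 bases before each are shown because Bcl6 is the member whose level stood furthest apart between the groups and because neither stretch overlaps an annotated exon. Capitals mark every match to TTCNNNGAA, the palindromic element that STAT proteins bind and that BCL6 itself recognises in a closely related form. The first lies at chr16:23988853-23989102 and the second at chr16:23981284-23981533, inside the gene, both read on the minus strand.
Bcl6 first start: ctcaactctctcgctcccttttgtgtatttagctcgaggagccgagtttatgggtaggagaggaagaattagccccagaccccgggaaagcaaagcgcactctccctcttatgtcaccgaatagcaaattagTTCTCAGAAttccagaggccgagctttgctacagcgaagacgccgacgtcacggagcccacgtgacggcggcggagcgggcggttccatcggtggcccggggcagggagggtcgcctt
Bcl6 second start: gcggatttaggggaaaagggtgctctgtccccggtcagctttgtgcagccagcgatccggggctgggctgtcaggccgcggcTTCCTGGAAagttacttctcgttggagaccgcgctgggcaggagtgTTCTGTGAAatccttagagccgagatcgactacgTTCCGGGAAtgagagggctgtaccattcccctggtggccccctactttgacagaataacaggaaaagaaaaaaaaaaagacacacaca
The first stretch holds 1 match, which begins 118 bases before the start, and the second holds 3, which begin 168, 122 and 88 bases before it. At least 1 match was present in 7.02% of the 32851 promoters of this length in the RefSeq table, and 3 or more in 0.0274%, which is 9 promoters; the count of 3 or more was made after the Bcl6 matches were seen. Promoters were given for 5 of the 8 members. Foxp3 had 1 STAT match before its second start, and Gata3, Il4ra and Rora had none. The T-box element AGGTGTGA, which T-bet binds, was found before no start of these 5 genes on either strand and in 1.12% of all promoters. The GATA element AGATAA was found once, before the second start of Foxp3, and in 9.99% of all promoters. The AHR core GCGTG was found before starts of Il4ra, Rora and Foxp3 and in 28.2% of all promoters. The matches of the 4 motifs in these stretches share no bases. Such matches describe the letters in these windows, and whether a factor was bound there was not measured.

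The list of BCL6 corepressors and antagonists, which holds Bcl6 itself, had 11 tested genes of 12, of which 0 rose and 0 fell by the test, with a median log2 fold change of -0.06. BLIMP-1, encoded by Prdm1, represses Bcl6 and is repressed by it. Prdm1 had 975, 855 and 805 normalised counts across the controls and 802, 714 and 732 across the cKO libraries, so every cKO value was below every control by a narrow margin (log2 fold change -0.23, SE 0.10, limma adjusted p = 0.978; -0.15 without control 1). STAT5A, which carries IL-2 signals that hold Bcl6 down, came from a gene with the same order of groups. Stat5a had 1729, 2063 and 1883 normalised counts across the controls and 1559, 1628 and 1622 across the cKO libraries (log2 fold change -0.24, SE 0.08). With the Y-linked share as a covariate Stat5a was among the genes called, in a fit that called 6.5% of all tested genes. Of the 17 tested Tfh genes 0 passed, and the median was -0.06. Fold changes were positive at 5 and negative at 12 (29.4% positive, beside 45.9% of all tested genes). Il6ra, a receptor chain for the Tfh-promoting cytokine IL-6, was higher in every cKO library (468, 435 and 376 across the controls and 570, 484 and 481 across the cKO libraries; log2 fold change 0.26, SE 0.12). The homing receptor gene Cxcr5 had 182, 179 and 109 across the controls and 170, 138 and 86.1 across the cKO libraries, and the cytokine gene Il21 had 205, 208 and 125 and 132, 138 and 90.4. Both overlapped between the groups and had negative fold changes, of -0.27 (SE 0.29) and -0.56 (SE 0.25). Icos, the co-stimulatory receptor gene of Tfh cells, was lower in every cKO library (log2 fold change -0.19, SE 0.09, and -0.12 without cKO 1). Over all tested genes, 5.64% were lower and 4.51% higher in every cKO library.

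**Figure D1:**
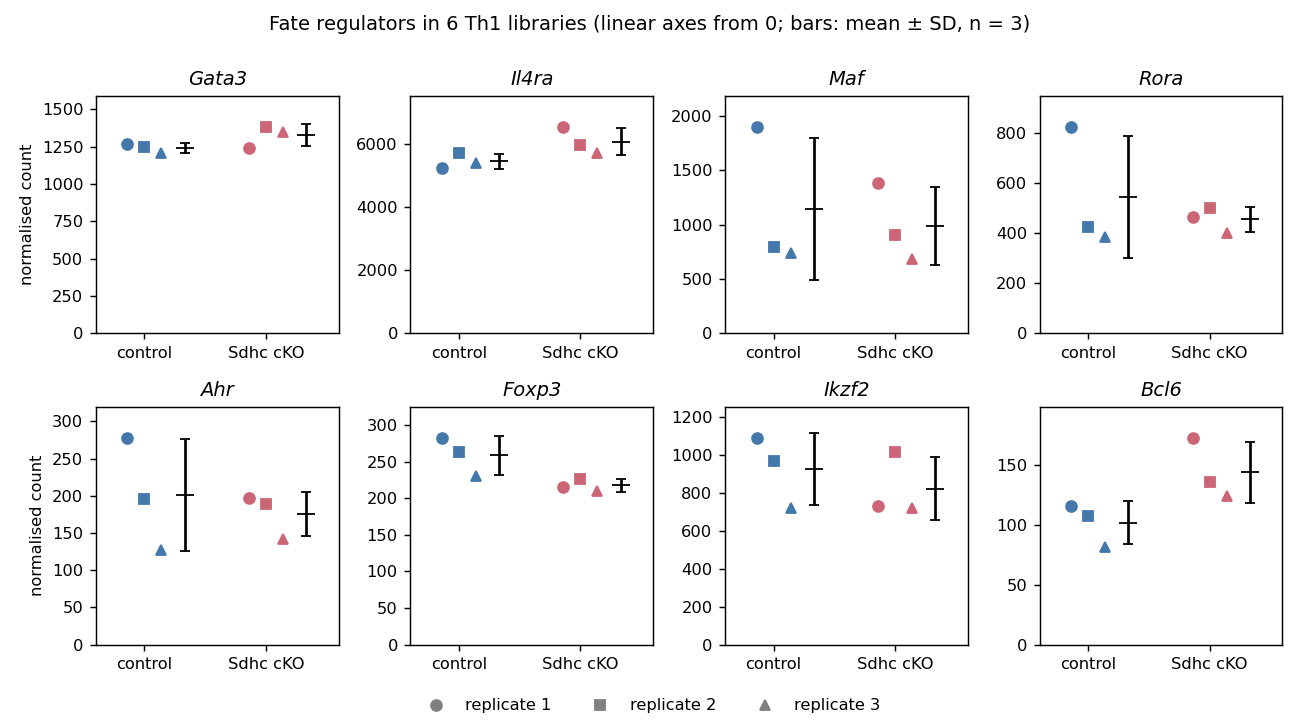
Normalised counts (vertical axes, linear from 0) of the 8 regulators in each of the 3 control and 3 Sdhc cKO libraries; marker shapes give the replicate number and bars the mean ± SD. Only Bcl6 (higher in cKO) and Foxp3 (lower in cKO) have groups that do not overlap, and Maf, Rora and Ahr have their highest value in control 1.

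FOXP3, the lineage factor of regulatory T cells, was the other member whose groups did not overlap. Foxp3 (chromosome X, 7573644 to 7595245, plus strand) had normalised counts of 282, 263 and 230 in controls 1, 2 and 3 and 216, 227 and 210 in cKO 1, 2 and 3. The lowest control at 230 and the highest cKO library at 227 were nearly the same. The means were 258 ± 26.6 in control and 218 ± 8.61 in cKO (± SD over n = 3), or 84.2% of control, for a log2 difference of -0.24 (SE 0.12, 95% interval -0.52 to 0.03) and a limma adjusted p of 0.978 (exact permutation p = 0.1, the smallest possible). cKO was lower in all 3 same-numbered pairs, as at 21.8% of all tested genes. Foxp3 is X-linked, and the libraries differed in sex-linked RNA as given above. With the Y-linked share as a covariate its log2 fold change was -0.24 (SE 0.12, limma adjusted p = 0.248). That share was itself higher in cKO 2 and cKO 3 than in any control and did not follow Xist. This fit therefore cannot separate sex-linked differences from genotype, and their part in the Foxp3 values was not tested. Exons of Foxp3 share 853 bases with Flicr, 590 with Ccdc22, 373 with Gm36995 and 266 with Ppp1r3f, out of 4577 in all (4.577 kb), and the strand setting of the counting is not given, so reads in those stretches cannot be assigned with certainty. The other 7 members share fewer exon bases with any 1 gene than Foxp3 does with Ccdc22, from 21 for Bcl6 (Gm37419) to 440 for Maf (Gm15655) and 571 for Il4ra (Gm44876).

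Helios, encoded by Ikzf2, is an Ikaros family factor that most regulatory T cells of thymic origin carry and that activated T cells can also express. Ikzf2 (chromosome 1, 69531214 to 69687245, minus strand) had 1089, 967 and 718 normalised counts across the controls and 732, 1013 and 720 across the cKO libraries. Both groups spanned nearly the same range, and the log2 difference of -0.17 (SE 0.19, 95% interval -0.60 to 0.26) stood beside within-number differences of -0.57, 0.07 and 0.00 on the log2 scale. With 1 library left out it was -0.04 without control 1, -0.09 without cKO 1, -0.08 without cKO 3, -0.34 without control 3 and -0.33 without cKO 2. Without both number 1 libraries it was 0.04. Among its relatives, Ikzf4 (Eos, a FOXP3 partner) overlapped with 497 to 655 across the controls and 448 to 570 in cKO. Ikzf3 (Aiolos) was lower in every cKO library, with 2835, 2823 and 2610 across the controls and 2307, 2535 and 2260 in cKO (log2 fold change -0.22, SE 0.08, limma adjusted p = 0.978). Of 20 tested Treg genes 0 rose and 0 fell by the test, and the median was -0.07. Fold changes were positive at 4 and negative at 16 (20% positive, beside 45.9% of all tested genes). Il2ra, the IL-2 receptor alpha chain that both regulatory and activated T cells carry, overlapped (means 32524 ± 3211 and 30060 ± 3409), as did the inhibitory receptor gene Ctla4 (2407 ± 238 and 2448 ± 411). Itgae, which encodes the CD103 integrin chain, went the other way from Foxp3. It had 48.2 to 50.6 normalised counts across the controls and 101, 73.2 and 94.7 across the cKO libraries, a log2 difference of 0.83 (SE 0.18, limma adjusted p = 0.978). It too was called with the Y-linked share as a covariate, in a fit that called 6.5% of all tested genes. Over all tested genes, 5.64% were lower and 4.51% higher in every cKO library.

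GATA3 directs the Th2 fate and opposes T-bet. Gata3 (chromosome 2, 9857078 to 9890034, minus strand) had 1270, 1249 and 1207 normalised counts across the controls and 1244, 1385 and 1351 across the cKO libraries. cKO 1 lay among the controls while cKO 2 and cKO 3 lay above them. The means were 1242 ± 32.2 and 1327 ± 73.2 (± SD over n = 3), a log2 difference of 0.09 (SE 0.08, 95% interval -0.08 to 0.27). It was 0.06 without cKO 2 and 0.16 without both number 1 libraries. The Th2 cytokine genes that GATA3 activates had lower normalised counts than Gata3, without scaling for exon length. Il5 had at most 9.04 normalised counts in any library and did not pass the filter. Il4 had 140, 58.8 and 47.3 across the controls and 52.2, 66.0 and 58.1 across the cKO libraries, and Il13 had 95.4, 46.1 and 33.0 and 35.2, 38.0 and 20.4. Control 1 was the highest library for both, and the groups overlapped. Il1rl1, which encodes the IL-33 receptor ST2, also overlapped (means 230 ± 51.5 and 168 ± 67.2). Of 12 tested Th2 genes 0 passed, 4 had positive and 8 negative fold changes (33.3% positive, beside 45.9% of all tested genes), and the median was -0.17. Without control 1 that median was 0.06, and without both number 1 libraries -0.04. Groups did not overlap at Nfil3, a basic leucine zipper factor (log2 fold change -0.16, SE 0.08), and at Epas1, which encodes HIF-2α (69.3 ± 9.47 and 96.7 ± 6.85, log2 fold change 0.48, SE 0.17). Neither passed (limma adjusted p = 0.978 for each), and groups without overlap were found at 10.2% of all tested genes.

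The IL-4 receptor alpha chain binds IL-4 and IL-13 and recruits STAT6. Il4ra (chromosome 7, 125552120 to 125579474, plus strand) had 5242, 5717 and 5396 normalised counts across the controls and 6551, 5960 and 5708 across the cKO libraries. The groups met at their edge, since control 2 at 5717 lay just above cKO 3 at 5708. The means were 5452 ± 242 and 6073 ± 433 (± SD over n = 3), or 111% of control, with a log2 difference of 0.15 (SE 0.08, 95% interval -0.03 to 0.34) and an exact permutation p of 0.2. cKO was higher in all 3 same-numbered pairs, by 0.32, 0.06 and 0.08 on the log2 scale, as at 14.6% of all tested genes. The difference was 0.098 without cKO 1 and 0.071 without both number 1 libraries. Of the 12 tested genes of IL-4 receptor signalling 0 passed, and the median fold change was -0.01. The receptor's common gamma chain gene Il2rg (3063 ± 616 and 3173 ± 486), the kinase gene Jak1 (10987 ± 452 and 11215 ± 639) and Stat6 (3544 ± 175 and 3452 ± 145) overlapped. Jak3, whose kinase docks on the common gamma chain and so serves IL-2 as well as IL-4, was the single gene of the list without overlap: 4410, 3869 and 4097 across the controls and 3676, 3376 and 3528 across the cKO libraries (log2 fold change -0.22, SE 0.08, limma adjusted p = 0.978). Groups without overlap were found at 10.2% of all tested genes.

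**Figure D2:**
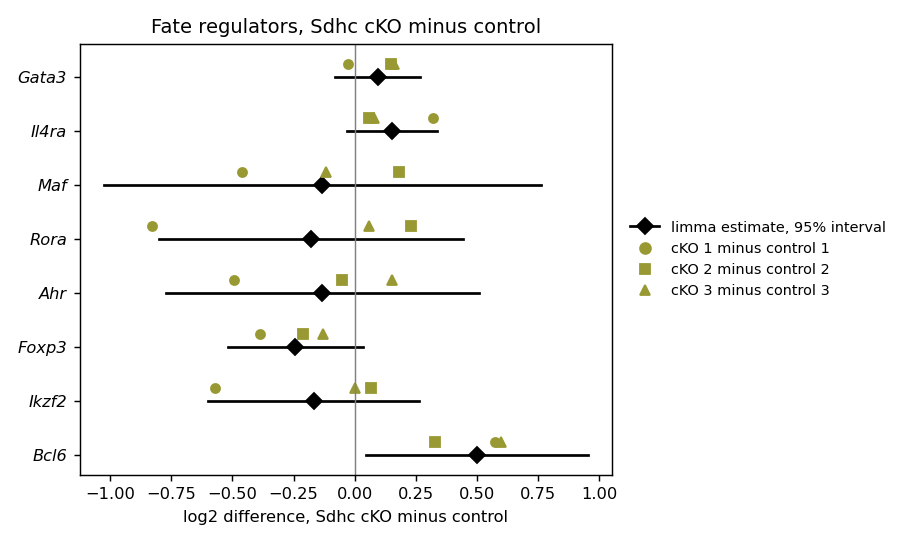
Log2 difference (horizontal axis, Sdhc cKO minus control) of the 8 regulators; diamonds and lines give the limma estimate with its 95% interval, and the smaller markers the difference between libraries of the same number. Bcl6 and Il4ra are higher in cKO in all 3 pairs, as are 14.6% of all tested genes. Foxp3 is lower in all 3, as are 21.8%. The intervals of Maf, Rora and Ahr are the widest.

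Maf, Rora and Ahr had the largest spread, and control 1 was the highest library for all 3. Their SEs in the main fit, which ignores the replicate number, were 0.39, 0.27 and 0.28. With the replicate number as a block they were 0.11, 0.17 and 0.14. c-MAF activates Il10, Il21 and Il4 in helper cells. Maf (chromosome 8, 115682942 to 115707794, minus strand) had 1901, 797 and 738 normalised counts across the controls and 1379, 905 and 680 across the cKO libraries. Both libraries numbered 1 lay above the other 4, which ran from 680 to 905, and the highest library had 2.79 times the lowest. The log2 difference was -0.13 (SE 0.39, 95% interval -1.03 to 0.76), which becomes 0.03 without both number 1 libraries. Among genes tied to c-MAF, Il10 was lower in every cKO library. Its normalised counts were 80.6, 72.5 and 75.9 across the controls and 55.2, 40.7 and 57.0 across the cKO libraries, with a log2 difference of -0.59 (SE 0.19, limma adjusted p = 0.978). Il10 was not high in cKO 1, where Maf was. Of the 9 tested genes of the Maf list 0 passed; 3 of them, Il10, Prdm1 and Nfil3, were lower in every cKO library, as were 5.64% of all tested genes, and the median was -0.10. Without cKO 3 that median was -0.05.

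RORα is a nuclear receptor of Th17 cells and of other lymphocytes. Rora (chromosome 9, 68653786 to 69388246, plus strand) had 825, 425 and 385 normalised counts across the controls and 464, 499 and 401 across the cKO libraries. Control 1 stood alone, and the other 5 libraries lay between 385 and 499. The log2 difference was -0.18 (SE 0.27, 95% interval -0.80 to 0.44) and turned to 0.16 without control 1. Of the Th17 cytokine genes, Il17a had at most 3.30 normalised counts in any library, Il17f at most 2.15 and Il22 at most 4.40, and none of these 3 passed the filter. Of 14 tested Th17 genes 0 passed, 2 had positive and 12 negative fold changes (14.3% positive, beside 45.9% of all tested genes), and the median was -0.21. Hif1a, a factor that favours Th17 cells and glycolysis, was lower in every cKO library (13827 ± 356 and 12027 ± 405, log2 fold change -0.20, SE 0.07, limma adjusted p = 0.978). Il6ra, which is also on the Th17 list, was higher in every cKO library (log2 fold change 0.26). Of all tested genes, 5.64% were lower and 4.51% higher in every cKO library.

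AHR binds small aromatic ligands, pairs with ARNT and switches on detoxifying enzymes and its own repressor. Ahr (chromosome 12, 35497974 to 35535038, minus strand) had 278, 196 and 128 normalised counts across the controls and 197, 189 and 142 across the cKO libraries. All 3 cKO values lay inside the control range, and the log2 fold change was -0.13 (SE 0.28, 95% interval -0.77 to 0.51), turning to 0.14 without control 1. The AHR target Cyp1a1 had at most 9.26 normalised counts in any library, and Cyp1b1 had 4.63, 28.4 and 27.5 across the controls and 3.01, 18.1 and 19.4 across the cKO libraries, low in both libraries numbered 1. Tiparp, another AHR target, was lower in every cKO library, as were 5.64% of all tested genes. It had 365, 311 and 326 across the controls and 273, 287 and 269 in cKO (log2 fold change -0.27, SE 0.11, limma adjusted p = 0.978). Arnt overlapped (1423 ± 100 and 1456 ± 79.7). Of the 10 tested genes of the AHR list 0 passed. Fold changes were positive at 2 and negative at 8 (20% positive, beside 45.9% of all tested genes), and the median was -0.14. That median was -0.0026 without cKO 1, -0.08 without control 3, -0.21 without cKO 2 and -0.05 without both number 1 libraries.

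Levels between genes were compared per kilobase of annotated exon (GENCODE M21), as normalised counts per kilobase in the controls. Il4ra was highest at 908 ± 40.4 (SD, n = 3), above 92.5% of tested genes, followed by Gata3 at 312 ± 8.08, Maf at 139 ± 79.5, Ikzf2 at 79.6 ± 16.3, Foxp3 at 56.4 ± 5.80, Rora at 41.7 ± 18.6, Ahr at 32.5 ± 12.2 and Bcl6 at 15.2 ± 2.69. Control libraries overlapped between the neighbours Maf and Ikzf2, Foxp3 and Rora, and Rora and Ahr, and not between the other neighbours. Tbx21, on the same scale, had 721 ± 61.7, between Il4ra and Gata3, and Prdm1 157 ± 15.7. Bcl6 was above 16.6% of tested genes. In bulk RNA, fewer cells that express a gene and less RNA in each cell cannot be told apart.

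Ratios within a library need no scaling factor, and 5 pairs of opposed regulators were compared. The log2 ratio of Tbx21 to Gata3 was 0.39, 0.65 and 0.54 across the controls and 0.14, 0.12 and 0.14 across the cKO libraries. All 3 cKO libraries lay below all controls, within a much narrower range, with a difference of -0.39 between the means (0.53 ± 0.13 and 0.13 ± 0.01, SD, n = 3 each). The exact permutation p was 0.1, the smallest possible, and 0.167 when adjusted over the 5 ratios. The log2 ratio of Tbx21 to Bcl6 was also lower in every cKO library, with 4.14 ± 0.30 in control and 3.34 ± 0.32 in cKO, a difference of -0.80 (exact permutation p = 0.1, adjusted 0.167). So was that of Prdm1 to Bcl6, which was 3.06, 2.98 and 3.29 across the controls and 2.21, 2.39 and 2.55 across the cKO libraries, a difference of -0.73 (exact permutation p = 0.1, adjusted 0.167). Tbx21 is itself lower in every cKO library (1794 ± 154 and 1454 ± 72.1, log2 fold change -0.30, SE 0.09, limma adjusted p = 0.978), as were 5.64% of all tested genes. It was called with the Y-linked share as a covariate, as were 6.5% of all tested genes. Its ratio to 41.1% of all other tested genes was lower in cKO without overlap, and higher to 0.142%. The ratio of Prdm1 to other tested genes was lower in cKO without overlap for 27.7% and higher for 0.228%. The log2 ratios of Tbx21 to Rora (difference -0.12) and of Tbx21 to Foxp3 (difference -0.06) overlapped between the groups, each with an exact permutation p of 0.8 and an adjusted value of 0.8.

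**Figure D3:**
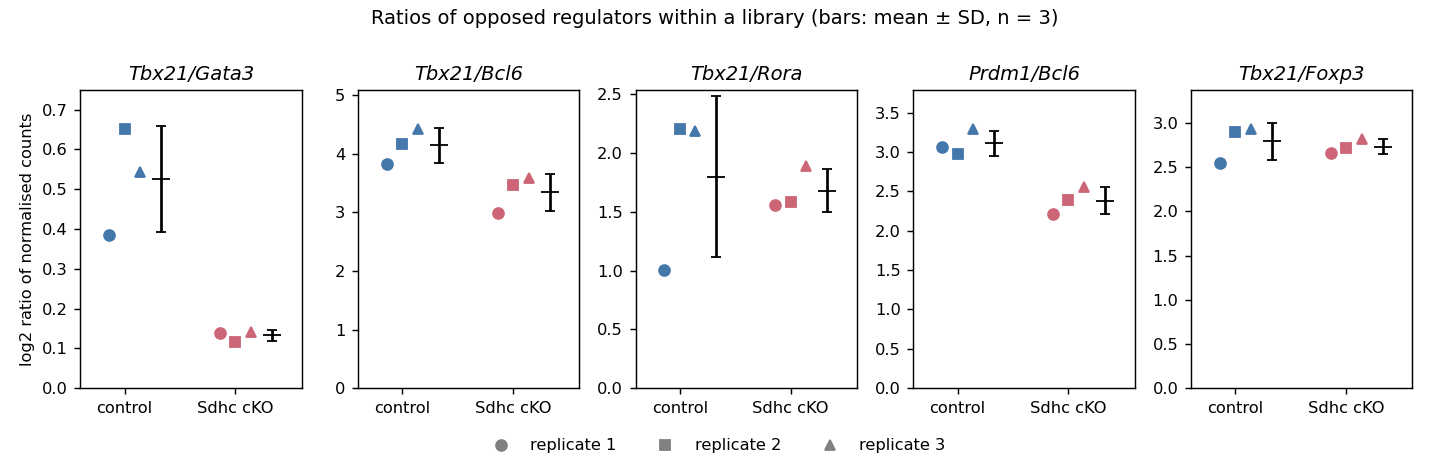
Log2 ratios of normalised counts (vertical axes, linear from 0) for 5 pairs of opposed regulators in each library, with the mean ± SD of 3 control and 3 Sdhc cKO libraries. The ratios Tbx21/Gata3, Tbx21/Bcl6 and Prdm1/Bcl6 are lower in every cKO library than in any control, and the others overlap.

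**Figure D4:**
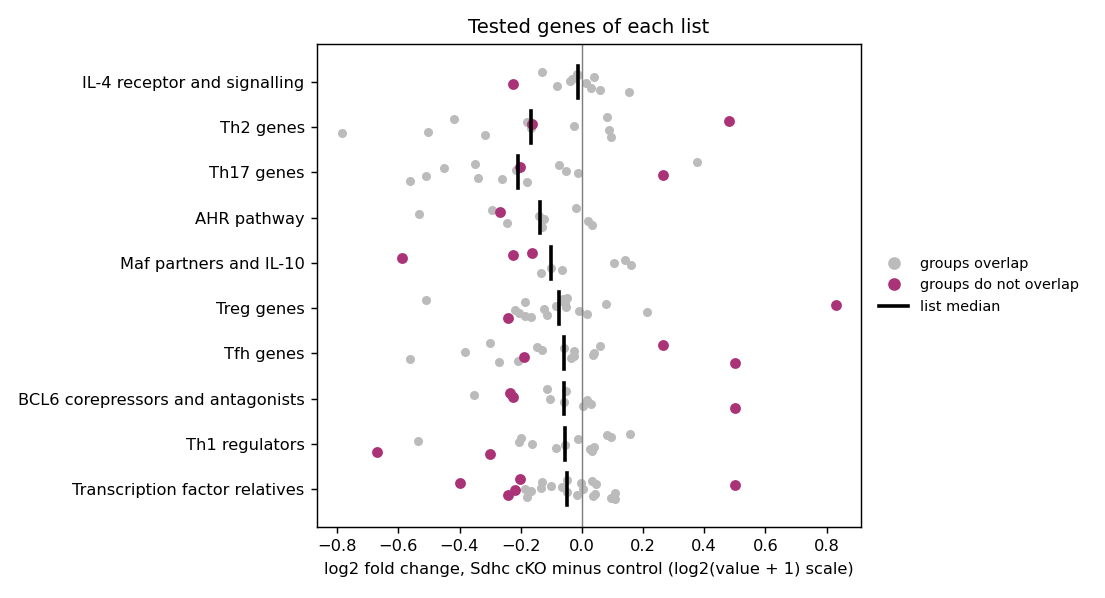
Log2 fold changes (horizontal axis) of the tested genes of each gene list, with darker points where control and cKO libraries do not overlap and a bar at the list median. Medians lie between -0.21 (Th17 genes) and -0.01 (IL-4 receptor and signalling), beside -0.01 over all tested genes.

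Markers of other cells that carry these regulators were low beside the T cell markers. They were not low beside every member. In every library Bcl6 (81.4 to 173) and Ahr (128 to 278) lay below several marker sums. These were the sums for B, NK, type 2 innate lymphoid, gamma delta T and CD8 T cells. The type 2 innate lymphoid and CD8 T cell sums also exceeded Foxp3 (210 to 282) in every library. The B cell sum exceeded Foxp3, Rora, Ikzf2 and Gata3 in every library. Of 7 markers of type 2 innate lymphoid cells, which depend on GATA3 and RORα, 2 were at 10 or below in every library, and the sum ran from 300 to 446 normalised counts across the controls and 223 to 410 in cKO. B cells, in which BCL6 is also active, had a marker sum of 1644 to 1995 across the controls and 1868 to 2081 in cKO, nearly all Ighm. Of the 7 B cell markers found, 4 passed the filter on low values, among them Cd79b at 21.5 to 39.2 over all libraries. The other 3 were at 10 or below in every library, with Ms4a1 at most 3.92. Myeloid markers summed to 38.9 to 83.4 and dendritic cell markers to 58.3 to 88.6 over all libraries, mast cell and basophil markers to 2.01 to 62.4, and NK cell markers to 328 to 596 across the controls and 214 to 448 in cKO. The groups overlapped for each of these sums. Summed markers of gamma delta T cells did not overlap (274 to 337 across the controls and 175 to 246 in cKO). Of their 4 tested genes 2, Tcrg-C1 and Tcrg-C4, were lower in every cKO library, as were 5.64% of all tested genes. Whether gamma delta T cells were present, or had any part in the lower values of Foxp3, Il10 and Prdm1, was not tested.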

How the data were processed

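Total RNA of sorted T cells after Th1 culture was made into libraries with Illumina TruSeq RNA reagents, as the labels' protocols state. The table the authors deposited holds gene-level signal values that are normalised counts: each library's counts divided by 1 size factor. Per the submitters' processing notes, STAR, HTSeq, DESeq2 and mm10 were used. Tool versions, annotation and strand setting were not given in the sources used here. All values of each library are whole multiples of 1 step (100% within 0.01), so reads could be recovered. In cKO 1 that step is 1.004, too close to 1 for the unit check used here to tell the values from plain counts, and the check accepted recovered reads for the other 5 libraries only. Its reads were recovered in the same way, and the DESeq2 and edgeR alternatives rest on this.

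Genes above 10 in at least 3 of 6 libraries were tested on log2(value + 1) with limma-trend 3.58.1 in R 4.3.3 (genotype only, Benjamini-Hochberg adjustment over 12699 genes, 95% intervals). Fold changes are on that scale. Alternatives used edgeR 4.0.16, DESeq2 1.42.0, other scalings, pseudocounts and filters, array weights, a Y-linked covariate, a replicate block and left-out libraries; leaving out both number 1 libraries was added after the data were seen. The main, replicate block, edgeR and DESeq2 fits were tried on simulated counts drawn independently for each library. Those counts held no structure by replicate number or sex-linked RNA, so they cannot show how the fits behave under it. Same-numbered libraries deviated together (r of 0.579, 0.458 and 0.188 for numbers 1, 2 and 3). The numbers were therefore taken as pairs in the replicate block and in the same-numbered differences. However, cKO 3 correlated more with control 2 (r of 0.272) than with control 3. The main fit, with its SEs and 95% intervals, and the permutation tests do not use the pairing. The members and gene lists were chosen with earlier results of these data known, and lists can hold members themselves. Genes named are the 8 members, signature genes of each fate, up to 4 genes of each list whose groups did not overlap (mean of at least 50), or its 2 most abundant, and the 2 list genes with the profile most like each member's. Exon lengths and gene positions come from GENCODE M21 (GRCm38), which held 17568 of 18929 symbols, and promoters from RefSeq (GRCm38.p6). The empty-vector, Slc25a1 and Slc25a11 samples, 6 in all, were not analysed here. Some genes of the lists are not reported here by name.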

Additional observations from a re-analysis of the deposited data

How the results depend on the processing

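The count of genes called was 0 and became 2 with DESeq2 (Ifng and Dleu2), 1 with array weights (Ifng, in a fit that stopped before its convergence tolerance), 826 with the Y-linked share as a covariate (209 higher and 617 lower in cKO, no member among them), 3 without both number 1 libraries (Ifng, Xist and Fosb, all lower) and 0 to 1 when 1 library was left out (Xist, without cKO 1). With the replicate number as a block it was 1 (Ifng, limma adjusted p = 0.0255), and the members' adjusted p ran from 0.271 to 0.721; the block changed no other call. Gata3, Il4ra, Foxp3 and Bcl6 kept their direction under all 19 alternatives. The other 4 members turned positive under some. Maf was 0.22 with the Y-linked covariate, Ahr 0.0025 with array weights, and Maf, Rora, Ahr and Ikzf2 were 0.033, 0.14, 0.050 and 0.035 without both number 1 libraries. With 1 library left out, Maf ran from -0.40 to 0.30 (0.30 without control 1, 0.11 without cKO 3), Rora from -0.39 to 0.16 (without control 1), and Ahr from -0.42 to 0.14 (0.14 without control 1, 0.01 without cKO 3). The Tbx21 to Rora difference ran from -0.52 (without control 1) to 0.081 (without control 2; 0.074 without control 3), and that of Tbx21 to Foxp3 from -0.18 (without control 1) to 0.011 (without control 3). The cause of these changes was not tested. List medians moved too: of 190 values 7 moved beyond the spread between replicates. The Th2 median was 0.060 without control 1, the Th1 median 0.0079 without control 2 and -0.18 without cKO 2, the IL-4 receptor median 0.020 with upper-quartile scaling and -0.053 without cKO 1, and the Treg median -0.16 with the Y-linked covariate and -0.15 without both number 1 libraries. Of 152 member values 141 kept direction and call. With 3 libraries a group no permutation p can go below 0.1. At Bcl6 too, the spread between libraries limits what can be told apart.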

Other observations

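Ifng, the gene of the cytokine that defines Th1 cells, was lower in every cKO library, at 1382 ± 68.9 normalised counts in the controls and 868 ± 11.5 in cKO (SD, n = 3 each; log2 fold change -0.67, SE 0.07, limma adjusted p = 0.265). It was called with DESeq2, the replicate block, array weights, the Y-linked covariate and without both number 1 libraries. Of 15 tested Th1 regulators 0 passed the test. Fold changes were positive at 6 and negative at 9 (40% positive, beside 45.9% of all tested genes), and the median was -0.05. That median was 0.0079 without control 2 and -0.18 without cKO 2. The list of transcription factors related to the 8 regulators, which holds 7 of them, had 24 tested genes. Of these 0 passed, 1 was higher in every cKO library (Bcl6 itself) and 4 were lower (Foxp3, Ikzf3, Hif1a and Zbtb32), beside 4.51% and 5.64% of all tested genes. Zbtb32, a BTB zinc finger gene, had 203 ± 17.6 in the controls and 154 ± 11.7 in cKO (log2 fold change -0.40, SE 0.13).

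Among 152 list genes, the profile nearest to each member over the 6 libraries was found by the mean absolute difference between centred log2 values. For Foxp3 these were Ikzf3 (0.04) and Tiparp (0.05), for Bcl6 Il6ra (0.12) and Tnfrsf18 (0.17), and for Gata3 Socs1 (0.05) and Foxo3 (0.06). Il4ra lay nearest Trac (0.05) and Jak1 (0.06), Maf nearest Tigit (0.19) and Rora (0.23), and Rora nearest Il4 and Ahr (0.15 each). Ahr lay nearest Cd200 (0.13) and Rora (0.15), and Ikzf2 nearest Slamf6 (0.10) and Cd200 (0.11). Such a small difference is easier to reach for a gene that varies little.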
